A study of Mus musculus with 18 samples.

Results

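The comparison is between 2 poly(A) library kits used on the same mouse liver RNA, the low-input SMART-Seq V4 kit (V4) and the standard TruSeq Stranded mRNA kit (TruSeq). Its members are the 17147 genes listed in both count tables, of 20328 genes listed in at least 1 of the 2 and 21018 in the 3 tables of the series. Each V4 library was compared with the TruSeq library of the same mouse after both had been scaled to their own total. The 6 mice were 12-week-old males of the strain C57/B6J, of which 3 received 20 µg/Kg of IL-1β (mice ILB.9579, ILB.9582 and ILB.9583) and 3 received saline (mice UNT.9574, UNT.9575 and UNT.9576), and the livers were taken 4 hours later. V4 libraries were made from 0.8 to 1.3 ng of RNA, without strand information, and read in pairs of 150 bp. TruSeq libraries were made from 200 ng, keep the strand, and were read in pairs of 125 bp on another sequencer in an earlier run. Kit, amount of RNA, strandedness, read length, sequencer and run therefore cannot be told apart, and every difference below is one between these 2 sets of libraries. The labels describe the tissue as snap-frozen, whereas the methods name a storage solution.

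Both kits rely on the poly(A) tail of messenger RNA, but at different steps. In V4, an oligo(dT) primer starts the cDNA at the tail, the enzyme has to travel to the 5' end of the RNA, where it switches template, and the whole cDNA is amplified before it is cut into fragments. In TruSeq, poly(A) RNA is first captured on beads and then broken into fragments, and the cDNA is started at random positions within them. Transcript length, base composition and strand are properties on which such protocols are commonly compared.

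The counts of a library summed to between 12013453 and 12352473 in V4 and between 12348864 and 12858237 in TruSeq, and the genes in both tables held over 99.9% of them. At this depth a V4 library had a count above 0 for 13728 to 15119 of the 17147 genes (median 14471) and a TruSeq library for 15700 to 15932 (median 15803), so the ranges did not overlap. Hepatocyte markers summed to 41320 to 67280 CPM (counts per 1000000 counts of the library) in V4 and 67800 to 113200 CPM in TruSeq. Those of neutrophils reached at most 61.9 CPM in V4 and 68.9 CPM in TruSeq. Libraries of the same kit and treatment differed more in V4, where the median SD between mice was 0.41 on the log2 scale over the 12367 genes that averaged 10 counts or more in the 12 libraries, against 0.18 in TruSeq. Among the 1560 genes that averaged 1000 counts or more it was 0.21 and 0.13. The V4 libraries of saline mouse UNT.9576 and IL-1β mouse ILB.9579 stood apart from the other 4 for the shortest transcripts. Genes with a longest transcript of up to 500 bases summed to 14800 and 13560 CPM in these 2 libraries, to between 7776 and 9272 CPM in the other V4 libraries and to between 7771 and 8955 CPM in TruSeq. For some lists the 2-fold counts without these 2 mice are given below too. Other lists also changed, and then had 10 higher and 1 lower (proteasome subunits), 3 and 3 (acute-phase proteins), 4 and 7 (cytochrome P450) and 11 and 5 (conjugation enzymes).

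The kits differed for most genes. With the mouse as a block in limma-voom and a Benjamini-Hochberg adjusted p (q-value) of at most 0.05, 10351 of 17147 genes were called (60.4%), 3434 of them higher in V4 (20%) and 6917 lower (40.3%). Of these, 1609 genes were at least 2-fold higher in V4 (9.38% of those tested) and 5314 were at least 2-fold lower (31%), and 6181 of these 6923 genes moved in 1 direction in all 6 mice. For 5611 genes (32.7%) the 6 V4 values and the 6 TruSeq values did not overlap. The median log2 ratio of V4 to TruSeq was -0.46, with quartiles of -1.45 and 0.37. The centre depends on the scaling. TMM factors, which align the bulk of the genes, raised the median by 0.31 to -0.15, and the 2-fold calls were then 2563 higher (14.9%) and 4158 lower (24.2%), so that the share of calls higher in V4 went from 23.2% to 38.1%. Ratios below are scaled to library totals and should be read against the median of -0.46.

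The most visible change at the top of the libraries was a trade between liver secretory proteins. Apoe, which carries lipids in plasma, took the largest share of the counts of a V4 library in all 6 mice, with 31940 to 52020 CPM (median 35700), against 7108 to 10070 CPM (median 7906) in TruSeq. Its log2 ratio was 2.21 ± 0.06 (SE, q-value 1.4e-09), and the kits did not overlap. Albumin, the main plasma protein (Alb), held that place in TruSeq, with 46170 to 82610 CPM (median 60690), against 14430 to 24320 CPM (median 19530) in V4. Its log2 ratio was -1.68 ± 0.03 (q-value 4.8e-11), with all 6 V4 libraries below all 6 TruSeq libraries. The 100 genes with the highest counts took 45% to 51.5% of a V4 library (median 48.3%) and 43.8% to 47.9% of a TruSeq library (median 44.9%). Within mice V4 was higher by 2.9 percentage points ± 1.23 (SD, n = 6), in 6 of 6 mice (exact sign-flip permutation test, two-sided, p = 0.03125, below which 6 mice cannot go, with an adjusted p of 0.03125 over 4 such tests). Over the 10 highest genes the difference was -0.50 points (exact test, p = 0.312), so this relation does not hold for the very top of the libraries.

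**Figure D1:**
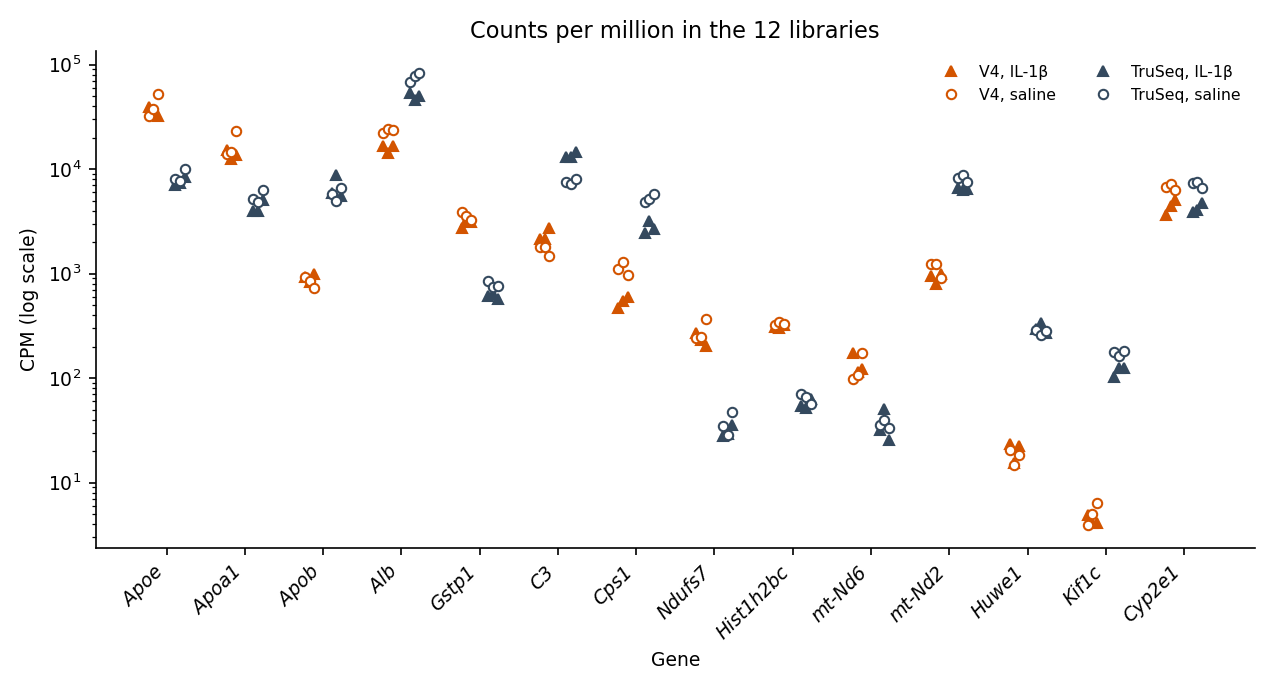
CPM on a log axis of 14 genes in the 12 libraries, with V4 in orange and TruSeq in dark blue, triangles for IL-1β mice and open circles for saline mice. Apoe, Apoa1, Gstp1, Ndufs7, Hist1h2bc and mt-Nd6 lie higher in all V4 libraries, Apob, Alb, C3, Cps1, mt-Nd2, Huwe1 and Kif1c lie higher in all TruSeq libraries, and Cyp2e1 overlaps.

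Transcript length separated the genes that were higher from those that were lower. The classes use the longest annotated transcript of each of these 12367 genes. The median log2 ratio was 0.71 in the 895 genes of 500 to 1000 bases, 0.78 in the 1169 genes of 1000 to 1500 bases and 0.50 in the 1308 genes of 1500 to 2000 bases. It crossed to -0.06 in the 2668 genes of 2000 to 3000 bases and was -0.67 from 3000 to 4000 bases. In the 2400 genes of 4000 to 6000 bases it was -1.39, in the 845 genes of 6000 to 8000 bases -2.09 and in the 494 genes over 8000 bases -2.35. The share of genes called at least 2-fold lower in V4 went from 8.38% at 1000 to 1500 bases to 91.9% over 8000 bases, where no gene of 494 was called 2-fold higher. Genes with transcripts over 6000 bases took 6.47% to 7.87% of the counts of a TruSeq library and 1.79% to 2.01% of a V4 library, whereas genes of up to 1500 bases took 22.5% to 25.4% and 36.7% to 44.7%. Under TMM factors the classes kept their order, with medians from 1.09 at 1000 to 1500 bases to -2.04 over 8000 bases.

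Within each mouse, Spearman's rho between transcript length and the log2 ratio across these genes was between -0.63 and -0.55 (mean -0.58 ± 0.03 SD, n = 6), below 0 in 6 of 6 mice (exact sign-flip permutation test, p = 0.03125, adjusted p = 0.03125). Genes share libraries and are no replicates, so the test is over mice. Pico, the total RNA kit of the series, gave a rho of 0.36 to 0.41 against the same TruSeq libraries over the 12363 genes that its table lists too, where V4 gave -0.63 to -0.55. The 2 ratios share the TruSeq libraries. The relation was not even. The 315 genes of up to 500 bases had a median of -0.18, below that of the next class. In the mice UNT.9576 and ILB.9579 the median of this class was 0.29 and 0.37, in the other 4 mice it was between -0.81 and -0.33, and without these 2 mice the fitted median was -0.53. The fit of the other 4 mice gave 0.59 at 500 to 1000 bases, 0.73 at 1000 to 1500 bases and -2.34 over 8000 bases. Exceptions occurred in both directions, with 313 of 2379 genes of up to 1500 bases called 2-fold lower and 38 of 3739 genes over 4000 bases called 2-fold higher.

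**Figure D2:**
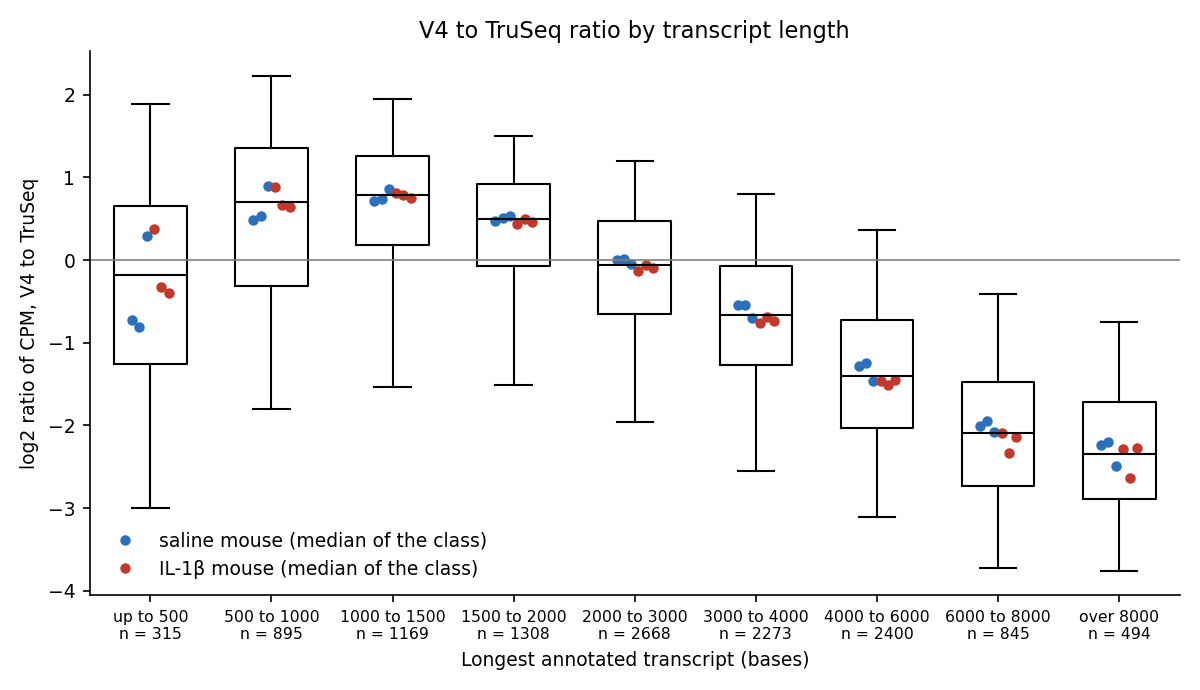
Log2 ratio of V4 to TruSeq (y axis) for 12367 genes in 9 classes of transcript length in bases (x axis), with boxes for the quartiles, lines for the medians, whiskers from the 5th to the 95th percentile and points for the median of the class in each mouse. The medians fall from 0.78 at 1000 to 1500 bases to -2.35 over 8000 bases, and the points of the 6 mice lie close together except in the shortest class.

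GC content moved the ratio in the other direction. The median log2 ratio was -1.13 in the 608 genes whose exons have a GC content of up to 40%, -0.61 between 45% and 50%, 0.10 between 55% and 60% and 0.48 in the 409 genes over 60%. Spearman's correlation across genes was 0.18 to 0.28 in a mouse (mean 0.25 ± 0.04 SD, n = 6), above 0 in 6 of 6 mice (exact sign-flip permutation test, p = 0.03125, adjusted p = 0.03125). Long transcripts tend to have a lower GC content, so the classes were crossed. For transcripts of up to 1000 bases the median rose from 0.07 at up to 42% GC to 1.14 over 54%, and from -0.16 to 0.97 for those of 1000 to 2000 bases. For transcripts over 4000 bases it was -1.74 and -1.46, a far smaller difference. The number of exons followed length, with medians of 0.13 for 2 to 5 exons, -0.77 for 11 to 20 and -2.51 for genes with more than 50.

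**Figure D3:**
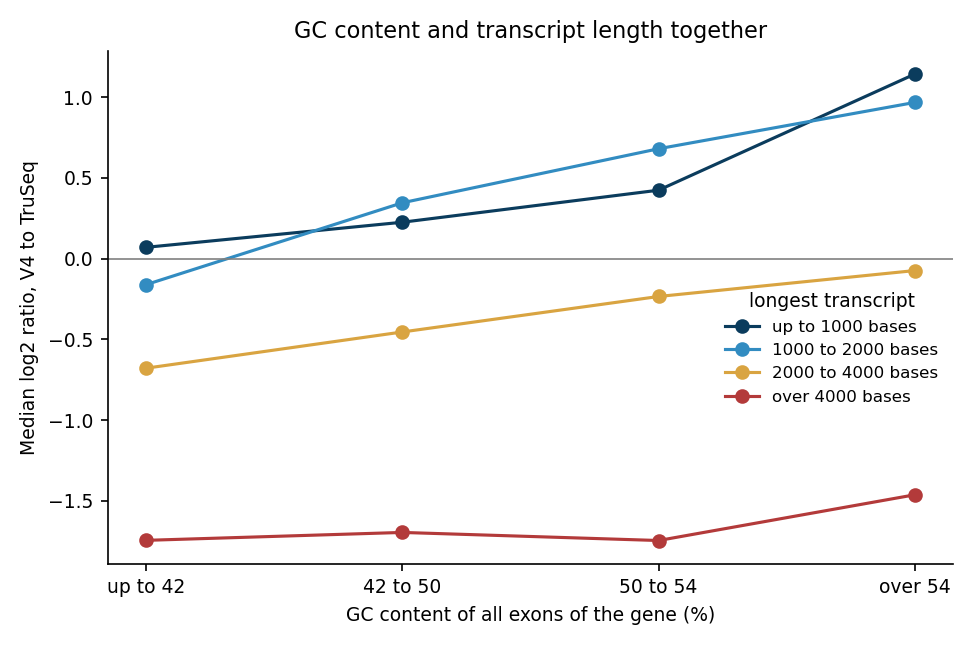
Median log2 ratio of V4 to TruSeq (y axis) in 4 classes of GC content in percent (x axis), with 1 line for each of 4 classes of transcript length. The lines of transcripts of up to 2000 bases rise to 1.14 and 0.97 over 54% GC, and that of transcripts over 4000 bases stays between -1.74 and -1.46.

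The genes with the largest differences were picked among the 4099 called genes that averaged 100 counts or more and did not overlap between kits, of which 1485 were higher in V4 and 2614 lower. Since they were chosen for their ratio, the ratios are a description. The 12 lowest had a median transcript length of 5726 bases and the 12 highest of 1064 bases, with a GC content of 52.2% and 59% (medians). Foxo4, a forkhead transcription factor, had 17.7 to 27.7 CPM in TruSeq (median 22.4) and 0 to 0.657 CPM in V4 (median 0.285). Tead1, a transcription factor of the Hippo pathway, had 3.98 to 96.4 CPM (median 30.2) and 0 to 1.56 CPM (median 0.248), and its annotation shares 3846 exon bases with a second entry of the same name. Foxo4 was thus close to the limit of detection in each V4 library and readily counted in each TruSeq library, whereas Tead1 also varied widely among the TruSeq libraries.

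Acvr1b, a type I activin receptor, had 8.79 to 39.3 CPM in TruSeq (median 20.2) and 0 to 1.29 CPM in V4 (median 0.457). Nfya, a subunit of the CCAAT-binding factor NF-Y, had a median of 16.9 CPM in TruSeq and of 0.29 CPM in V4. Kif1c, a kinesin motor, had 3.91 to 6.39 CPM (median 4.5) against 103 to 181 CPM (median 144) in TruSeq, a log2 ratio of -4.93 ± 0.16. Ankrd52, Cramp1l, the kinase genes Cdc42bpb and Pip4k2b, and 4921513D23Rik completed the protein-coding genes of the group, with log2 ratios between -5.36 and -4.88. Foxo4 and Acvr1b have transcripts of 3162 and 3277 bases, so the lowest genes were not all among the longest.

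At the other end stood short and GC-rich genes. Zfp771, a zinc finger gene of 1232 bases with 66.9% GC, had 22.4 to 50.4 CPM in V4 (median 29.8) and 0.781 to 1.77 CPM in TruSeq (median 1.2), a log2 ratio of 4.65 ± 0.32. Bola1, which encodes a small mitochondrial protein, had a median of 41.7 CPM in V4 and 4.08 CPM in TruSeq. Pgp, a phosphoglycolate phosphatase gene, had a median of 53.3 CPM in V4 and 5.71 CPM in TruSeq. The alpha globin gene Hba-a1 had 75.6 to 281 CPM in V4 (median 131) and 8.1 to 20.4 CPM in TruSeq (median 14.9), and its near copy Hba-a2 had a log2 ratio of 2.92 ± 0.14. Reads of near-identical copies can be split or lost in counting, so the values of both are uncertain, as are those of Gm13202, Gm15590 and Rpl36-ps3, whose names or annotation mark them as pseudogenes. Gm16517 and 2210411K11Rik, with log2 ratios of 3.95 and 3.72, and the histone gene H2afj completed this group apart from 2 genes that overlap others on the opposite strand.

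Genes with an exon on the opposite strand of another gene are of interest because a V4 read carries no strand. Across the 12367 genes the relation was small. The median log2 ratio of the 2645 genes with such an overlap was below that of the 9722 genes without one by 0.0069 to 0.058 within mice (mean difference -0.029 ± 0.019 SD, n = 6, exact sign-flip permutation test, p = 0.03125, adjusted p = 0.03125). Over the genes that averaged 1 count or more the difference was 0.017 (exact test, p = 0.281), so its sign depends on the filter. Of the 20 genes with more than 75% of their exon bases overlapped, 10 were called 2-fold lower in V4 and 1 higher, with a median of -1.06, against 3328 lower of 9722 genes (34.2%) without overlap.

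Single pairs differed far more. Gm15450 (ENSMUSG00000063001), a pseudogene at chr3:37613662-37614100 in mm9 on the plus strand, had 396 of 439 exon bases opposite Gm5148. It had 74.7 to 90.5 CPM in TruSeq (median 83.9) and 0.167 to 1.78 CPM in V4 (median 0.414). Gm5148 had 0 to 0.079 CPM in TruSeq (median 0.0389) and 0.662 to 5.5 CPM in V4 (median 1.83), a log2 ratio of 5.01 ± 0.53 (q-value 9.5e-06) that depends on the added count at these levels. The members of the pair thus differed between the kits in opposite directions, but the difference in CPM was far smaller for Gm5148. Gm15459, a pseudogene at chr5:5781530-5783607 on the minus strand, with 1997 of 2078 exon bases opposite Gm17431, had 305 to 871 CPM in TruSeq (median 684) and 1.83 to 13.8 CPM in V4 (median 6.84). Gm17431 had a median of 0 CPM in V4 and 0.278 CPM in TruSeq, so the counts of this pair were low on both sides in V4. Reads of pseudogenes can be split, moved or lost in counting, so the values of Gm15450 and Gm15459 are uncertain. In the paper's RT-PCR comparison, which counted all loci that the primers map to, Gm15450 had values of similar size in both kits in mouse ILB.9579.

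The 2 highest ratios of all belonged to genes that TruSeq hardly counted. Gm17494 (ENSMUSG00000057359), a lincRNA at chr3:121958876-121996467 on the minus strand, had 227 to 603 counts in V4 (median 303) and at most 2 counts in a TruSeq library. Its mean CPM over the V4 libraries was 128-fold a floor of 3 counts per TruSeq library, which is no bound for a single mouse. It overlaps 296 exon bases of Gclm, the regulatory subunit of glutamate-cysteine ligase on the plus strand, which had a median of 188 CPM in V4 and 186 CPM in TruSeq. 4930412F15Rik (ENSMUSG00000043633), at chr4:43672494-43682017 on the minus strand, had 269 to 638 counts in V4 (median 344.5) and at most 2 in TruSeq. Its mean CPM over the V4 libraries was 139.5-fold the same floor. All 379 exon bases of the pseudogene Gm12481 lie opposite its exons, and Gm12481 was not listed in the V4 table but had a mean of 267.7 counts in TruSeq. Tmem8b, which lies opposite another 175 of its exon bases, had medians of 0.125 CPM in V4 and 1.23 CPM in TruSeq, a log2 ratio of -2.58 ± 0.71. Where the V4 reads lie within this locus was not tested.

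In all, 6 genes had at least 20 counts in each V4 library and at most 3 in each TruSeq library, and 7 genes had the reverse. Exon overlap on the opposite strand was annotated for 3 of the 6 and 2 of the 7. Among the former was B430119L08Rik, opposite Serpina1c, with 100 to 312 counts in V4. Among the latter was Pus3, a pseudouridine synthase gene with 2400 of 2754 exon bases opposite Hyls1, with 70 to 93 counts in TruSeq and at most 3 in V4.

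The mitochondrial genome carries genes on both strands with very unequal transcript levels, and most of its mRNAs have short poly(A) tails. Of the 13 mitochondrially encoded mRNAs, 10 were at least 2-fold lower in V4 and 1 was higher, with a median log2 ratio of -2.24. Without mice UNT.9576 and ILB.9579, 11 were lower. All mitochondrially encoded transcripts together took 4.93% to 6.59% of the counts in TruSeq (median 5.61%) and 0.9% to 1.66% in V4 (median 1.17%). mt-Nd2, a subunit of complex I, had 6308 to 8884 CPM in TruSeq (median 7108) and 792 to 1242 CPM in V4 (median 973), a log2 ratio of -2.85 ± 0.05. mt-Co1, the catalytic subunit of cytochrome c oxidase, had 18370 to 25960 CPM in TruSeq (median 22110) and 1058 to 5549 CPM in V4 (median 3424). These transcripts are short and low in GC, with a median GC content of 37.1%. With up to 42% GC, genes of up to 1000 bases had a median of 0.07 and those of 1000 to 2000 bases one of -0.16. Most of the mitochondrial mRNAs lay below both values. The exception was mt-Nd6, the only one of these mRNAs encoded on the other strand, with 98.5 to 174 CPM in V4 (median 119) and 25.3 to 50.9 CPM in TruSeq (median 34.1), a log2 ratio of 1.87 ± 0.17 (q-value 3.5e-06). Its annotation overlaps that of mt-Nd5 on the opposite strand by 14 bases, and mt-Nd5 had a log2 ratio of -2.23 ± 0.07. The rRNAs mt-Rnr1 and mt-Rnr2 were lower in V4 by log2 ratios of -4.29 ± 0.38 and -1.73 ± 0.17, with a median of -3.01 that was -3.70 without these 2 mice.

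The nuclear genes of the mitochondrion went the other way. Of the 84 nuclear-encoded subunits of the respiratory chain, 56 were at least 2-fold higher in V4 and none lower, with a median log2 ratio of 1.24 and a median transcript length of 957.5 bases. Without mice UNT.9576 and ILB.9579 they were 52 higher and 1 lower. Ndufs7, a complex I subunit, had 201 to 371 CPM in V4 (median 243) and 27.9 to 47.3 CPM in TruSeq (median 32), which made it the highest of the list at 2.94 ± 0.10. Cox4i1, of cytochrome c oxidase, had a log2 ratio of 1.54 ± 0.08, and the ATP synthase subunits Atp5b and Atp5a1 had 0.64 ± 0.04 and 0.11 ± 0.04. Ndufs1, with a transcript of 2918 bases, was the lowest of the members that averaged 10 counts or more, at -0.51 ± 0.11. Of 76 mitochondrial ribosomal proteins, 45 were 2-fold higher and 1 lower, with a median of 1.11, and without these 2 mice 37 were higher and 1 lower. Mrpl34 was the highest, with 32.9 to 145 CPM in V4 and 7.97 to 16.2 CPM in TruSeq, and Mrpl12, the best counted, had a log2 ratio of 1.35 ± 0.07. Of 42 proteasome subunits, 11 were 2-fold higher and 1 lower, with a median of 0.75, and 24 and 1 under TMM factors. Psmb3 and Psmb6 of the core had log2 ratios of 1.95 ± 0.08 and 1.77 ± 0.06, and the lower one was the activator Psme4, of 6491 bases, at -2.69 ± 0.15.

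By their longest annotated transcripts, cytosolic ribosomal proteins were an exception to the relation with length. Their median transcript length was 940.5 bases, yet 34 of 78 were at least 2-fold lower in V4 and 2 higher, with a median log2 ratio of -0.87, and 23 lower and 4 higher under TMM factors. Relative to the median of each gene's length class the median was -1.31, whereas for mitochondrial ribosomal proteins it was 0.68. The summed level was 1917 to 2939 CPM in V4 (median 2315) and 3336 to 3946 CPM in TruSeq (median 3656), without overlap. Rpl4, the best counted member, had 194 to 243 CPM in V4 and 424 to 458 CPM in TruSeq, and Rps3 had a log2 ratio of -0.55 ± 0.06. Rpl5 was the lowest of those that averaged 10 counts or more (-2.65 ± 0.20) and Rpl27 the highest (1.60 ± 0.24). These genes have many processed pseudogenes, so a part of their reads can be lost or moved in counting, and their values are uncertain. The median of the list was -0.60 in mouse UNT.9576 and -0.57 in mouse ILB.9579, and -1.21 to -0.91 in the other 4. The class of up to 500 bases, with a median of -0.18, was also higher in these 2 mice (0.29 and 0.37). Whether the list follows that class was not tested. Without these 2 mice 42 of 78 were 2-fold lower and 1 higher, with a median of -1.17.

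Histone genes are of particular interest for poly(A) kits, since most replication-dependent histone mRNAs end in a conserved stem-loop in place of a poly(A) tail. Of 38 such genes in both tables, 13 were at least 2-fold higher in V4 and 1 lower (10 and 1 without mice UNT.9576 and ILB.9579), and 28 averaged fewer than 10 counts. The letters of the stem-loop (the capitals in the sequences below, of which 4 positions were free to vary), searched on the transcribed strand from 100 bases before to 100 bases after the annotated end, were found in 17 of the 38, which were the only matches among all 17147 genes (0.0991%). Among the 10 genes with more counts, 4 had a match and are shown here because they had the 4 highest ratios of the 10. These 4 reached an average of 10 counts through V4, as with Hist1h4h at a mean of 32.2 in V4 and 0.67 in TruSeq. Their rank is thus partly set by the filter. The other matches averaged fewer than 10 counts, with log2 ratios from -0.05 (Hist1h2bf) to 2.95 (Hist1h4c). The letters were chosen after these ratios were seen. Each sequence is 5′ to 3′ on the strand of the gene in mm9, within the annotated last exon, and capitals mark the stem-loop.
Hist1h4h (chr13:23623320-23623349, plus strand): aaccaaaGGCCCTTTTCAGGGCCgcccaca
Hist1h4d (chr13:23673812-23673841, plus strand): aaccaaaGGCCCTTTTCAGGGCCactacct
Hist2h2aa2 (chr3:96043700-96043729, minus strand): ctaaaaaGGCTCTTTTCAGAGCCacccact
Hist1h1e (chr13:23713644-23713673, minus strand): acccaaaGGCTCTTTTCAGAGCCacccaca

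Hist1h4h had 1.65 to 3.56 CPM in V4 (median 2.78) and 0 to 0.162 CPM in TruSeq (median 0.0395). That is at most 2 counts in a TruSeq library. Its mean CPM over the V4 libraries was 11.1-fold a floor of 3 counts per TruSeq library. Hist2h2aa2 had 3.83 to 12 CPM in V4 (median 6.22) and 0.0781 to 0.484 CPM in TruSeq (median 0.363), a log2 ratio of 4.33 ± 0.34 (q-value 1e-06). Hist1h1e, a linker histone, had a log2 ratio of 3.99 ± 0.47 and Hist1h4d one of 4.40 ± 0.55, both with at most 3 counts in a TruSeq library, where a fitted ratio depends on the added count and is no bound. All 4 were low in V4 too, with medians of 1.45 to 6.22 CPM. The signal AATAAA, searched on the transcribed strand in the last 50 bases of the longest transcript, was found in none of these 4, in 4 of the other 6, and in 53.9% of all genes. The 4 were singled out by their ratios, so this contrast is a description. Hist1h2bc, which has the signal and no match to the stem-loop letters within the window, had 300 to 341 CPM in V4 (median 322) and 51.8 to 70.7 CPM in TruSeq (median 59.6), a log2 ratio of 2.41 ± 0.07. Hist1h1c and Hist2h3c1, which have the signal too, had log2 ratios of 0.36 ± 0.13 and -1.26 ± 0.25. The histone genes are near copies of each other, and their values are uncertain for that reason. Variant histones, whose mRNAs are polyadenylated, were also mostly higher in V4, with 5 of 10 at least 2-fold higher and 1 lower (5 and 2 without mice UNT.9576 and ILB.9579). H2afj had a log2 ratio of 3.39 ± 0.25, H2afx of 2.12 ± 0.20 and H3f3b of 1.16 ± 0.05, and H3f3a, with a transcript of 2841 bases, had one of -1.51 ± 0.14.

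Among secreted liver proteins, the sign of the difference varied within families. Of 17 apolipoproteins, 10 were at least 2-fold higher in V4 and 1 lower, with a median log2 ratio of 1.15. Apoa1 and Apoa2, the main proteins of HDL, had medians of 14190 and 11010 CPM in V4 and 4969 and 3826 CPM in TruSeq, without overlap. Apob, the structural protein of LDL with a transcript of 13934 bases, was the lower one, with 734 to 996 CPM in V4 (median 885) and 4939 to 8855 CPM in TruSeq (median 5872), a log2 ratio of -2.83 ± 0.11. The summed level of the family was 69530 to 116900 CPM in V4 and 28300 to 37380 CPM in TruSeq.

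Of 28 acute-phase proteins, which the liver makes in inflammation, 4 were 2-fold higher, 4 lower and 20 neither, with a median of 0.28. Over all genes 9.38% were 2-fold higher and 31% lower. The metallothionein gene Mt1 had a log2 ratio of 2.23 ± 0.11 and its relative Mt2 one of -0.53 ± 0.13. The serum amyloid genes Saa1 and Saa3 had 0.33 ± 0.05 and 1.01 ± 0.07, and haptoglobin (Hp) had 0.93 ± 0.05. Fibrinogen chains were close together, with 0.42 ± 0.07 for Fgb, 0.26 ± 0.04 for Fgg and -0.35 ± 0.05 for Fga, the last of which was -0.04 under TMM factors and 0.0032 with edgeR. These genes differ in level between IL-1β and saline mice in both kits, so their ranges over 6 mice are wide and only the ratio within mice is given.

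Of 30 complement genes, 10 were 2-fold lower in V4 and 4 higher, near the 31% and 9.38% of all genes, with a median of -0.27. TMM factors moved the median to 0.03 and gave 10 lower and 7 higher. The large central components were lower, with C3 at 1464 to 2722 CPM in V4 (median 1973) and 7272 to 14700 CPM in TruSeq (median 10510). Hc and C4b had log2 ratios of -2.81 ± 0.06 and -1.53 ± 0.09. The inhibitor Serping1 and the short protease Cfd had ratios of 0.52 ± 0.04 and 2.41 ± 0.26. Of 28 coagulation and fibrinolysis genes, 4 were 2-fold higher and 6 lower, with F12 the highest at 1.46 ± 0.06. The major urinary proteins, pheromone carriers secreted by the male liver, had 4 of 37 genes 2-fold higher, 3 lower and a median of 0.64, with 13 higher and 2 lower under TMM factors. Mup3, Mup20 and Mup7 had log2 ratios of 0.84, 0.97 and 0.76, and these near-identical copies are uncertain too.

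Metabolic enzymes had members on both sides of 0. Their counts stand beside 9.38% of all genes 2-fold higher and 31% lower, or 14.9% and 24.2% under TMM factors. Of 65 cytochrome P450 genes, 5 were 2-fold higher and 6 lower, with a median of 0.21, and 11 and 5 under TMM factors. Cyp2e1 had 3635 to 7268 CPM in V4 (median 5680) and 3876 to 7494 CPM in TruSeq (median 5674), a log2 ratio of -0.02 ± 0.04 that was 0.29 under TMM factors. Cyp3a11 and Cyp2c29 had 0.42 ± 0.05 and 0.52 ± 0.04, and the lowest, Cyp4f17, had -2.99 ± 0.37. Of 56 conjugation enzymes, 11 were 2-fold higher and 4 lower, with a median of 0.43, and 23 and 3 under TMM factors. Gstp1, a glutathione transferase of 753 bases, had 2745 to 3920 CPM in V4 (median 3214) and 573 to 856 CPM in TruSeq (median 694), a log2 ratio of 2.24 ± 0.05. Gstm1 and Mgst1 had 1.57 and 1.22, and Ugt2b34, of 4312 bases, had -1.72. In fatty acid oxidation 5 of 28 genes were 2-fold higher and 4 lower, or 7 and 2 under TMM factors. The thiolases Acaa1a and Acaa2 had 1.68 ± 0.07 and 1.39 ± 0.04, and the trifunctional protein gene Hadha, with a transcript of 4020 bases, had -1.63 ± 0.07.

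In the urea cycle and amino acid catabolism 4 of 30 genes were 2-fold higher and 5 lower. Cps1, which starts the urea cycle and has a transcript of 5555 bases, had 470 to 1279 CPM in V4 (median 786) and 2449 to 5730 CPM in TruSeq (median 3994), a log2 ratio of -2.28 ± 0.07. Serine dehydratase (Sds), of 1207 bases, had 1.76 ± 0.09. In cholesterol synthesis no gene of 24 was 2-fold higher by limma-voom and 4 were lower, with Fdps the highest at 0.96 ± 0.06. Under TMM factors 4 were higher and 3 lower. The median of the urea cycle and cholesterol lists was -0.02 and -0.18, and 0.29 and 0.12 under TMM factors. Of 33 genes of ER folding and translocation, 4 were 2-fold higher and 12 lower, near the 9.38% and 31% of all genes. Under TMM factors 9 were higher and 7 lower, where all genes had 14.9% and 24.2%. Sec61b, a short translocon subunit, had 2.07 ± 0.09, and the chaperone Hyou1, of 4925 bases, had 257 to 1143 CPM in TruSeq (median 764) and 16.6 to 66.9 CPM in V4 (median 51.4), a log2 ratio of -3.87 ± 0.18.

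Most members of 3 lists of large proteins and regulators were lower in V4, where 31% of all genes were 2-fold lower. Their median transcript lengths were 10520 bases (sorting, turnover and metabolism), 8424 bases (cytoskeletal, motor and adhesion) and 7585 bases (chromatin). Of the better counted genes of 6000 to 8000 bases 85.1% were 2-fold lower, and of those over 8000 bases 91.9%. Relative to their length classes the medians of the 3 lists were only -0.36, -0.24 and -0.29. The 32 large proteins of sorting, turnover and metabolism were all at least 2-fold lower, with ratios between -4.09 and -1.75 and a median of -2.77. Huwe1, a ubiquitin ligase of 14579 bases, had 259 to 337 CPM in TruSeq (median 285) and 14.9 to 23.2 CPM in V4 (median 19.5). The endocytic receptor gene Lrp1 had a log2 ratio of -2.35 ± 0.10 and fatty acid synthase (Fasn) one of -1.92 ± 0.10. Vps13d and Nbeal2 marked the ends of the list at -4.09 ± 0.21 and -1.75 ± 0.35. Of 34 large cytoskeletal, motor and adhesion proteins, 33 were 2-fold lower, among them Iqgap2 (-2.05 ± 0.08), and the remaining one, Actn4, had -0.40 ± 0.11. Of 44 chromatin regulators, 38 were 2-fold lower and none higher. The BET protein gene Brd2 and the corepressor gene Ncor1 had -1.19 ± 0.07 and -0.97 ± 0.09, and Tcf20, the lowest, had -4.55 ± 0.45.

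Of 40 ABC transporters, 26 were 2-fold lower and none higher, with the cholesterol exporter Abca1 at -2.35 ± 0.12, the bile salt pump Abcb11 at -2.24 ± 0.06 and Abcb8 the highest at 0.54 ± 0.18. Of 334 Zfp zinc finger genes, 172 were 2-fold lower and 11 higher (133 and 19 under TMM factors), with a median of -1.19. Of 250 solute carriers, 81 were lower and 21 higher, near the shares of all genes (31% and 9.38%), with a median of -0.56. Relative to their length classes the medians of these lists were -0.30, -0.55 and 0.12. Zfp106 had -2.89 ± 0.10, and Zfp498 was next to absent from V4, with at most 1 count in a library. Its mean CPM over the TruSeq libraries was 19.4-fold a floor of 3 counts per V4 library. Of 17 noncoding and snoRNA host RNAs, 11 were 2-fold lower and none higher. The nuclear RNAs Malat1 and Neat1 had log2 ratios of -0.70 ± 0.15 and -0.70 ± 0.15, with overlapping ranges in Neat1, and Gas5 had 21.9 to 45.9 CPM in V4 and 63.7 to 125 CPM in TruSeq. A list of small RNA and snoRNA genes had 8 members in both tables, with a median annotated transcript length of 948 bases. Of these, 2 were 2-fold higher and 1 lower (1 and 1 without mice UNT.9576 and ILB.9579). The 2 that averaged 10 counts or more were Snord123, annotated as a lincRNA of 1482 bases, and Mir17hg, of 3536 bases. Mir17hg was the lower one and is also in the noncoding and snoRNA host list.

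Markers of liver cell types are given because both kits started from the same RNA. A level in whole tissue does not tell the number of cells from the RNA per cell, but neither differed between the 2 libraries of a mouse. Of 8 sinusoidal endothelium markers, 5 were 2-fold lower in V4 and none higher, and their sum was 62.4 to 140 CPM in V4 and 137 to 241 CPM in TruSeq. The scavenger receptor gene Stab1 and the junction protein gene Cdh5 had -2.14 ± 0.13 and -2.44 ± 0.21, and the short lectin gene Clec4g had 0.54 ± 0.10. Of 8 stellate cell markers 4 were lower and none higher, with Reln at -2.20 ± 0.19 and Dcn at 0.40 ± 0.06. Over all genes 31% were 2-fold lower and 9.38% higher. The endothelium and stellate lists had median transcript lengths of 3714 and 5387 bases. Relative to their length classes their medians were -0.26 and 0.12. Of 8 Kupffer cell markers 2 were lower and 1 higher (1 and 1 under TMM factors, 1 and 0 without mice UNT.9576 and ILB.9579), with Csf1r at -1.01 ± 0.17 and Cd68 at 1.01 ± 0.21. Of 8 hepatocyte markers 3 were lower and 1 higher, so the Kupffer cell and hepatocyte lists were near the shares of all genes. Of 6 cholangiocyte markers 2 were higher and 1 lower (4 and 1 under TMM factors, 1 and 0 without these mice), with Krt19 at 1.28 ± 0.36 and Spp1 at 0.75 ± 0.07. Of 5 red cell markers 4 were higher, with a sum of 350 to 986 CPM in V4 and 141 to 230 CPM in TruSeq, and Alas2, which starts heme synthesis, had 0.41 ± 0.08. By limma-voom none of the 5 neutrophil markers was called, with 0 at an unadjusted p under 0.05, against 2 under TMM factors and 1 each by edgeR and DESeq2. Of 6 lymphocyte markers, all averaging fewer than 10 counts, 1 was higher. Of 18 genes of an RT-PCR panel, 14 were 2-fold lower in V4 and 1 higher. The panel was chosen on these samples for differences between kits and is not independent evidence of a direction. Gapdh, a control gene of the panel that has many pseudogenes, had a log2 ratio of 0.12 ± 0.14.

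The difference between kits was then compared between treatments, in mice that are not shared. In the 3 IL-1β mice 1432 genes were 2-fold higher in V4 (8.35%) and 4171 lower (24.3%), and in the 3 saline mice 1448 (8.44%) and 3992 (23.3%). Of the higher genes 1119 were called in both, which is 78.1% of the calls in IL-1β mice and 77.3% of those in saline mice, and of the lower genes 2946, or 70.6% and 73.8%. For 4 genes the calls were opposite. Over the 12367 better counted genes the ratios of the 2 treatments had a Pearson's r of 0.9 and a median absolute difference of 0.25, where the genes share libraries.

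An interaction of kit and treatment was called for no gene by limma-voom (0%), with 1263 genes at an unadjusted p under 0.05, and for 6 genes by edgeR and 47 by DESeq2. Without saline mouse UNT.9576 limma-voom called 35. The smallest p belonged to Nlrp12, an NLR family gene, whose log2 ratio was -0.31 in IL-1β mice and 0.94 in saline mice (difference -1.25 ± 0.14 SE, q-value 0.151). Plat, the tissue plasminogen activator, and the lincRNA 4930481B07Rik followed with differences of -5.38 ± 0.83 and -4.90 ± 0.76 (q-values of 0.407), and both had at most 2.23 CPM in a library. Such a test does not show that the kit difference was the same in both treatments.

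**Figure D4:**
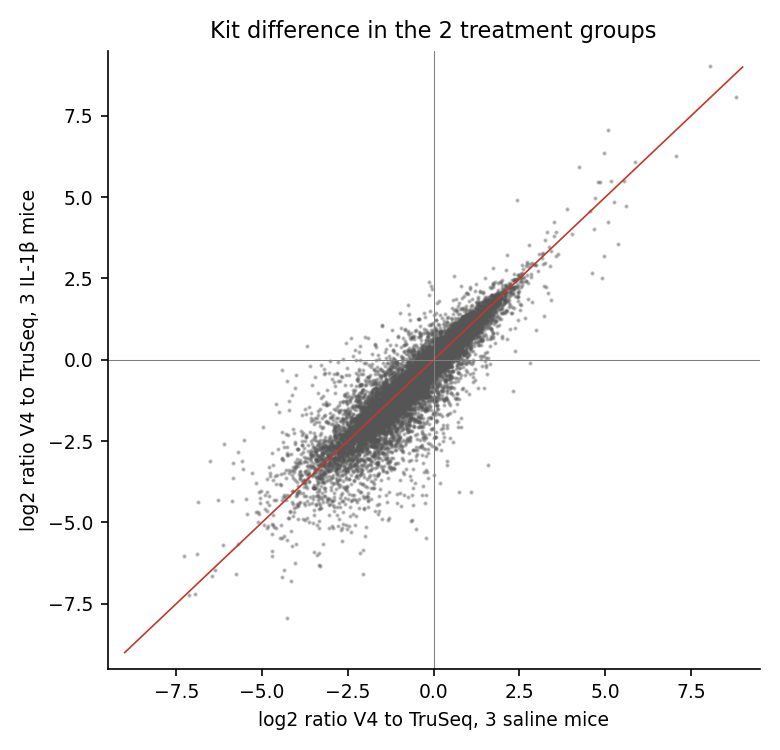
Log2 ratio of V4 to TruSeq in the 3 IL-1β mice (y axis) against that in the 3 saline mice (x axis), with 1 point for each of 12367 genes that averaged 10 counts or more and a red line of equal values. The points lie along the line, with a median absolute difference of 0.25, and the spread is wider where the ratios are low.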

How the data were processed

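Liver RNA of 6 mice was sequenced with V4 and TruSeq, and the 12 libraries were grouped by kit, treatment and mouse number from the labels. The authors aligned reads to mm9 with GSNAP, resampled them with PORT and deposited whole-number counts per gene, of both strands for V4 and of the sense strand for TruSeq. Reads had to follow annotated junctions, which bears on overlapping genes and pseudogenes. No molecular identifiers were used, and intervals or floors (3 counts) cover counting error only.

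Kits were compared with limma-voom (limma 3.58.1, R 4.3.3) on the 17147 genes in both tables with library totals, kit and mouse as terms, and Benjamini-Hochberg adjustment over all genes. Called genes had an adjusted p of at most 0.05, and 2-fold calls a log2 ratio of at least 1 in size. The mouse number pairs the libraries, since RNA of 1 animal entered both kits, and deviations from the group means correlated at 0.119 to 0.273 within a mouse and -0.191 to -0.0397 between mice. Single values per mouse were tested with exact sign-flip permutation tests. CPM values are counts over the library total, and ratios per mouse used 0.5 added counts. Alternatives were edgeR 4.0.16, DESeq2 1.42.0, TMM factors, other totals, filters, no block, each treatment alone and each mouse left out, and, chosen after the data were seen, leaving out mice UNT.9576 and ILB.9579. The scripts were tested on simulated data.

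Gene lengths, GC content, exons and strand came from GENCODE vM1 on mm9, which matched all 17147 genes. Lengths are those of the longest transcript. Sequences were read from mm9. Named genes are the 12 highest and 12 lowest ratios (8 each among protein-coding genes) averaging 100 counts or more, with a call and no overlap of kits, members of each list with the highest or lowest ratio or the most counts, the RT-PCR genes and the 3 smallest interaction p-values. Others, among them Hist1h4d, Hist2h2aa2, Hba-a2, Mt2, Saa3, H2afx and the opposite-strand partners, were named after their values were seen. The members, gene lists and tests were chosen with earlier results of these data known. Summaries used Python 3.11.15 with pandas 2.3.3 and scipy 1.17.1, and figures matplotlib 3.10.9. Some members that the rule would name are not reported here.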

Additional observations from a re-analysis of the deposited data

Results flagged for a closer look

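Among the 6 mice, 1 mouse stood apart from the others by Dixon's test in 8 of 169 values, which chance gives in about 5% of groups. In IL-1β mouse ILB.9583 the rho of the ratio with GC content was 0.181 (median of the others 0.258), the median of the cytochrome P450 list was 0.41 (0.10), the median of the stellate cell markers was -2.11 (-0.90), and the log2 ratios of Bola1 and 4921513D23Rik were 2.47 (3.64) and -3.73 (-5.41). In IL-1β mouse ILB.9582 the log2 ratio of Psme4 was -3.64 (-2.53) and that of Nbeal2 was -0.0046 (-2.06). In saline mouse UNT.9576 that of H2afx was 3.49 (1.78).

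Genes listed in only 1 of the 2 tables entered no comparison. The highest of the 904 genes listed in V4 alone were Nrtn with a mean of 31.3 counts, Gm17475 with 28.5, Gm17282 with 28, Gadl1 with 25 and Klhl10 with 20.2. The highest of the 2277 genes listed in TruSeq alone were Gm14048 with a mean of 270.3 counts, Gm12481 with 267.7, Gm10260 with 195, Sco2 with 149.5 and Gm4673 with 90.5. A mean of at least 10 counts was reached by 11 and 20 of these genes.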

How the results depend on the processing

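The number of genes called 2-fold higher in V4 was 2563 with TMM factors and 2505 with DESeq2, against 1609, and their shift of the centre is built into these scalings. Each other count of genes called between kits was within 1.5 times the main one. Without 1 mouse it was 9722 to 9876 genes, 1515 to 1619 of them 2-fold higher and 5032 to 5174 lower, and without mice UNT.9576 and ILB.9579 it was 9171, 1390 and 4856. Without the replicate block 10374 genes were called, 1574 2-fold higher and 5640 lower, and the pairing changed no other count by over 1.5 times. Interactions numbered 0 without the block, 6 with edgeR, 47 with DESeq2, 1 over genes averaging 10 counts or more, and 0 to 35 without 1 mouse. The cause was not tested.

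With 5 mice the exact test cannot go below 0.0625, and with 4 not below 0.125. Without 1 mouse the 100 highest genes differed by 2.71 to 3.29 points, rho with length was -0.591 to -0.575, rho with GC 0.241 to 0.261, and the opposite-strand difference -0.0338 to -0.0235. Without mice UNT.9576 and ILB.9579 these were 2.94, -0.56, 0.24 and -0.028. The share of the 10 highest genes differed by -0.50, the opposite-strand difference was 0.017 over genes averaging 1 count or more (exact p = 0.281) and -0.21 for whole genes, and without the replicate block the 100 highest genes gave an exact permutation p of 0.0455.

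Of 323 list medians relative to all genes, 3 changed sign, for small RNA genes (-1.86 over genes averaging 10 counts or more) and, without mice UNT.9576 and ILB.9579, for solute carriers (0.011) and Kupffer cell markers (0.032). Of 1933 values of the 129 named genes under the alternatives, 1853 kept both direction and call, 54 of 18 genes lost the call, 12 of 5 genes gained one and 14 of 7 genes changed sign. Among the last, Fga gave 0.0032 with edgeR and 0.046 with DESeq2. Cyp2e1 gave 0.29 with TMM factors and with edgeR, 0.33 with DESeq2, 0.052 in IL-1β mice and 0.0025 without mice UNT.9576 and ILB.9579. Gclm gave -4.5e-06 without both. Gapdh and Nlrp12 gave -0.16 and -0.31 in IL-1β mice, Plat 1.16 in saline mice, and 4930481B07Rik 1.54 there, -1.15 to 0.12 without 1 mouse and 0.025 without mouse ILB.9583. Depth limits low genes most, since the median SD between V4 libraries was 0.81 for genes of 10 to 100 counts.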
